A study of Mus musculus with 8 samples.

Results

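The genes described here are the amino acid transporters of regulatory T cells (Tregs) from mouse spleen. They were chosen by symbol: every gene of the deposited expression table whose name begins with Slc1a, Slc3a, Slc6a, Slc7a, Slc36a, Slc38a or Slc43a followed by a digit, which gave 64 of the 21524 genes in the table. 1 of the 64, Slc7a6os, shares only its name with the families: its product takes part in the nuclear import of RNA polymerase II. Tregs hold back other immune cells under the transcription factor Foxp3. They were sorted by flow cytometry, and total RNA was sequenced from 4 libraries labelled IL-2 (replicates 41 to 44) and 4 labelled Ctrl, called control here (replicates 45 to 48). The series concerns an IL-2 mutein given with CTLA-4 Ig after mismatched heart or kidney transplantation. The labels do not say which form or dose of IL-2 the IL-2 group received, what the controls were given, or if CTLA-4 Ig or a transplant was part of this experiment. The sources used here do not state the strain, sex, age, sort gate or number of these animals. If libraries share an animal, the p-values reflect technical spread only.

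Cells take up amino acids through carriers of several unrelated families. The Slc7 light chains exchange amino acids across the membrane and reach the cell surface only with a heavy chain, Slc3a2 (CD98) or Slc3a1, while the cationic carriers of the same family, such as Slc7a1, work alone. Carriers of the Slc38 family and Slc1a5 bring in glutamine and other neutral amino acids, and the Slc6 family largely serves neurotransmitters, taurine and creatine in nerve, kidney and gut. Activated T cells are known to raise Slc7a5, Slc3a2 and Slc1a5, and uptake of leucine, arginine and glutamine feeds the kinase complex mTORC1, which Tregs need for their suppressive function. At the lysosome, Slc38a9 senses arginine for that complex.

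Values below are normalised reads: reads per gene in a library after scaling for depth, recovered from the deposited variance-stabilised values. Depth ran from 4953545 to 6399417 reads per library. All 10 Treg and T cell markers found in the table were expressed, Foxp3 at 1883 ± 262 with IL-2 and 1537 ± 290.3 in controls (SD, n = 4 each). They were not all level. Without overlap, Il2ra (18107 ± 1601 against 6935 ± 781), Lrrc32 (3998 ± 587 against 1501 ± 87.5) and Tnfrsf18 (2246 ± 303 against 1327 ± 154) were higher with IL-2. Cd4 was lower without overlap (2523 ± 354 against 4136 ± 299.6), and the groups of the other markers in this list overlapped. Sums over the marker lists of some other cell types differed between the groups. 9 B cell markers summed to 121 to 241 with IL-2 and 489 to 606 in controls. The sums of 12 monocyte, macrophage and dendritic cell markers were 864 to 1128 and 1964 to 2257, and those of 6 CD8 T and NK cell markers 128 to 192 and 199 to 274. Stroma markers summed to 983 to 1185 and 1267 to 1537, most of it Pecam1. The sums overlapped for red cell markers (0 to 43.5 and 0 to 93.2) and neutrophil markers (0 to 0.948 and 0 to 1.04). Of the myeloid list, Clec9a was at 0 in all libraries, Lyz2 had 0 reads in every IL-2 library and 10.1 ± 4.64 in controls, and Ctss and Cybb made up most of the sum. The B cell genes Ms4a1 and Blk averaged below 1 read in each group, and Cd74 held most of that list's sum. Of the CD8 T and NK cell list, Eomes and Klrb1c were lower with IL-2 without overlap. Cd8b1 was level (65.0 ± 12.2 against 67.8 ± 22.8), and Prf1 had a higher mean (76.9 ± 16.0 against 53.1 ± 16.8) with overlapping groups. 4 proliferation markers summed to 9594 to 19329 with IL-2 and 4548 to 6405 in controls, the highest in IL-2 library 44. In bulk libraries a change in the share of a kind of cell and a change in RNA per cell cannot be told apart.

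Spleen Tregs expressed a minority of the transporter repertoire. A gene is called expressed here when it had at least 10 normalised reads in at least 4 of the 8 libraries, which 22 of the 64 members met (34.4%), against 50.1% of all genes in the table. Of the others, 24 had some reads below that level and 18 stood at the lowest value, that is 0 reads, in all 8 libraries. The members that were not expressed held 0.175% to 0.494% of the reads of the 64 in a library. A count of 0 allows up to 3 reads in a library (for counting error only), so a transcript below that was not detectable at this depth.

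**Figure D1:**
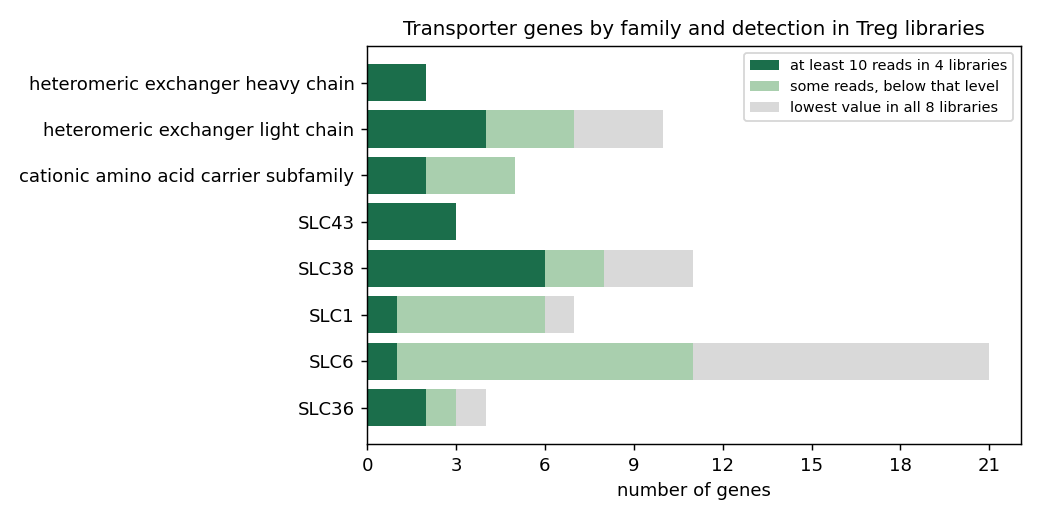
Number of transporter genes in each family (x axis) by detection in the 8 Treg libraries; Slc7a6os is left out. All 3 Slc43 genes and both heavy chains were expressed, while 1 of 21 Slc6 genes and 1 of 7 Slc1 genes were.

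The repertoire differed by family. Both heavy chains (Slc3a1 and Slc3a2) and all 3 Slc43 genes were expressed, and so were 6 of 11 Slc38 genes, 4 of 10 light chains (Slc7a5, Slc7a6, Slc7a7 and Slc7a10), 2 of 5 genes of the cationic carrier subfamily (Slc7a1 and Slc7a14) and 2 of 4 Slc36 genes. Slc7a7 reached 10 reads in IL-2 libraries only, Slc7a10 in control libraries only, and Slc43a1 in 4 of the 8 libraries. The glutamate carriers of the Slc1 family (Slc1a1, Slc1a2, Slc1a3 and Slc1a6) had a few reads at most, Slc1a7 had 0, and Slc1a5, the glutamine carrier, was the expressed member. Its close relative Slc1a4, a carrier of alanine, serine and cysteine, had 1 normalised read or fewer in every library. Of 21 Slc6 genes, Slc6a6, the taurine carrier, was the expressed one, and the creatine carrier Slc6a8 had reads in control libraries 47 and 48 (18.4 and 3.63) and 0 in the other 6. The cystine exchanger Slc7a11, a target of the stress factor Atf4 in many cells, had 0.909 in control library 45 and 0 elsewhere. The 18 genes at 0 throughout were Slc1a7, Slc36a3, Slc38a4, Slc38a5, Slc38a11, Slc7a12, Slc7a13, Slc7a15 and 10 Slc6 genes (Slc6a3, Slc6a9, Slc6a11, Slc6a12, Slc6a14, Slc6a15, Slc6a16, Slc6a19, Slc6a20a and Slc6a21).

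Levels can be set side by side between genes only per length of transcript. Per kilobase of the longest annotated coding transcript, Slc38a6 led in controls with 710.2 ± 64 normalised reads (SD, n = 4). Slc3a2 (166 ± 31.1), Slc38a1 (155 ± 6.73), Slc7a6os (152 ± 27.5), Slc38a2 (131 ± 7.75), Slc6a6 (124 ± 7.57), Slc1a5 (119.8 ± 20.8), Slc43a2 (119 ± 17.3) and Slc38a10 (105 ± 19.6) followed, and neighbours in that order after Slc38a6 lay within their spread. Among light chains, Slc7a10 reached 50 ± 22.1 per kilobase in controls, Slc7a5 44.8 ± 4.0 and Slc7a6 39.4 ± 7.77, which their spreads do not separate. With IL-2 the order after Slc38a6 (641 ± 32.3) began with Slc1a5 (195 ± 48.0) and Slc3a2 (180.2 ± 15.5), and Slc7a10 was lowest (1.0 ± 1.69). The order rests on which transcripts the cells use: with the median length of a gene's coding transcripts, Slc38a6 stayed first but Slc6a6 moved from place 6 to place 2 in controls.

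**Figure D2:**
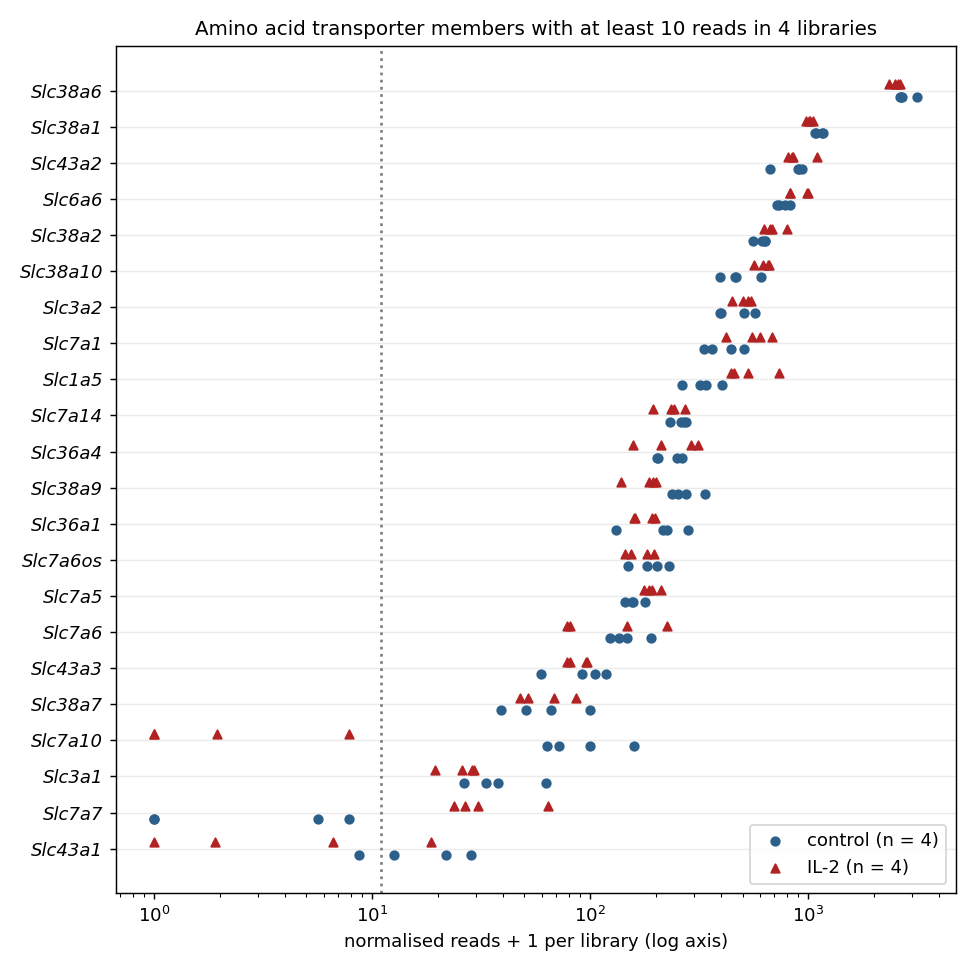
Normalised reads plus 1 in each library (x axis, log scale, not scaled for length) for the 22 expressed members, ordered by mean; triangles are the 4 IL-2 libraries and circles the 4 control libraries, and the dotted line marks 10 reads. Slc7a10 and Slc7a7 are the genes whose groups lie far apart.

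Which of these transporters differed under the treatment was asked by setting the IL-2 libraries against the controls. Most did not pass the test: a small rise of the glutamine carrier Slc1a5, a small fall of the lysosomal arginine sensor Slc38a9, the near loss of the light chain Slc7a10 and a rise of the light chain Slc7a7 stood out. The summed normalised reads of the 64 members were 9826 ± 233 with IL-2 and 9648 ± 218 in controls, a ratio of 1.02. A gene was tested on the deposited log2 scale if it exceeded the lowest value by 1 or more in at least 4 libraries. That scale is compressed, so its differences and intervals are smaller than on reads. Members tested on it are given on it below unless reads are named, and the others on reads. With limma, 12 members were tested on the deposited scale and 3 passed an adjusted p of 0.05 (25%), 2 higher and 1 lower. Over all 5261 genes tested, 31.4% passed, 16.8% higher and 14.6% lower, so the members' share lay near that of all genes. On log2 of normalised reads plus 5, which takes in all 22 expressed members, 4 passed (18.2%), 2 higher and 2 lower, against 19.9% of 10777 genes (10.9% higher and 9.07% lower). Groups did not overlap for 4 of the 12 members, against 31.5% of all genes tested, and for 6 of the 22 on reads, against 23.9%. A called change of at least 2-fold on reads was found in 2 members, Slc7a7 and Slc7a10, against 6.86% of genes, and both entered the fit through 1 group alone. The median difference of the 12 members was 0.05 and of all 5261 genes -0.01, and on reads it was -0.01 for the 22 members and for all 10777 genes.

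The promoters of 4 of the 5 members that passed in either fit are shown because they are the genes on which the comparison turns. Slc1a5 is the fifth. Each window is taken from RefSeq (GRCm38.p6) and runs from 250 bases before to 50 bases after the most upstream listed start site, 5′ to 3′ on the gene's strand. They are Slc7a10 on chr7:35186135-35186434 (plus strand), Slc7a7 on chr14:54417895-54418194 (minus strand, 1 of 5 listed start sites), Slc38a9 on chr13:112660516-112660815 (plus strand) and Slc38a10 on chr11:120151302-120151601 (minus strand). Capitals mark matches on either strand to TTCNNNGAA, the spaced pair bound by STAT factors such as STAT5 below the IL-2 receptor, to CACGTG, the E-box bound by Myc, or to TGATGNAA, the composite element bound by Atf4 with C/EBP factors.
Slc7a10: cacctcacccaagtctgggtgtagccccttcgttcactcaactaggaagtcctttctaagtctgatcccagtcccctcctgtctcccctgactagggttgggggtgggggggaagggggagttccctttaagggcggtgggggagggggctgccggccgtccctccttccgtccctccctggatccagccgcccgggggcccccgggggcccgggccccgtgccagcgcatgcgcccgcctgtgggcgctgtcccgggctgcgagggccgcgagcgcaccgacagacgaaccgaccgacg
Slc7a7: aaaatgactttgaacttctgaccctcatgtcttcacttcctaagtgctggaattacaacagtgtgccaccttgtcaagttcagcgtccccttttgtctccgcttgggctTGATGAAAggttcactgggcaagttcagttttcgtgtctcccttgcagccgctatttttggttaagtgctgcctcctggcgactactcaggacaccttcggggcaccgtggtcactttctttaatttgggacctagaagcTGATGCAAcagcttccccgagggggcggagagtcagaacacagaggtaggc
Slc38a9: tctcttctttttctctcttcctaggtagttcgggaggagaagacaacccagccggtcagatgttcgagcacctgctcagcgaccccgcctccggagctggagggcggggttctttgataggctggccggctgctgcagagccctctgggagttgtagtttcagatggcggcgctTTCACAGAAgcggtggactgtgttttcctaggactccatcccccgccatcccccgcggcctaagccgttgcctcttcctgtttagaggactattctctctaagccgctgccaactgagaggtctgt
Slc38a10: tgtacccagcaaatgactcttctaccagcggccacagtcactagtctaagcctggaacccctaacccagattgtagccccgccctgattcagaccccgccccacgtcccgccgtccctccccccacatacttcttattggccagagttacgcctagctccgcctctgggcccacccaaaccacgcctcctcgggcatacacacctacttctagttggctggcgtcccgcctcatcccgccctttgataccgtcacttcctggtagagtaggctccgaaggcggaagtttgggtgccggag

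Slc7a7 held 2 matches to TGATGNAA, Slc38a9 held 1 to TTCNNNGAA, and Slc7a10 and Slc38a10 held 0 of the 3 motifs. Of the 22 expressed members, 17 had windows in the table, and TTCNNNGAA was found in 2 of them, CACGTG in 4 and TGATGNAA in 1. Over all 27025 genes with windows of the same length, the shares were 9.55%, 8.09% and 4.51%. None of these matches overlapped another. A match is a stretch of letters and was not tested as a binding site.

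Slc7a10 had the widest difference of the members. It encodes Asc-1, a light chain that pairs with Slc3a2 and exchanges small neutral amino acids such as glycine, alanine, serine (D-serine included) and cysteine, and that is best known from brain and fat. Its normalised reads were 99.1, 71.3, 158 and 62.2 in control libraries 45 to 48 and 0, 6.87, 0 and 0.948 in IL-2 libraries 41 to 44. All 4 IL-2 libraries lay below all 4 controls, as for 10.9% of the 10777 genes tested. The mean fell from 97.7 ± 43.2 to 1.96 ± 3.31, 50-fold lower, a ratio that rests on 8.42 reads in the IL-2 group against 394 in controls before scaling. The log2 difference was -3.90 ± 0.43 (SE, limma adjusted p = 7.34e-05). The gene entered this fit through its control libraries alone, so it had to differ between the groups to some degree. An annotated neighbour on the opposite strand, Lrp3, overlaps its end by 1088 bases and stood at 0 in every library. The summed B cell and myeloid markers were lower with IL-2 too, as given above. Single markers differed in direction: Cd74, Cd22, Ctss and Cybb were lower with IL-2, Cd79b (60.1 ± 31.1 against 42.0 ± 14.1), Cd68 (17.2 ± 7.98 against 13.4 ± 7.15) and Fcer1g (6.07 ± 5.19 against 3.21 ± 2.05) had higher means with overlapping groups, and Itgam was level (63.4 ± 35.9 against 64.4 ± 25.5). Their part in the fall of Slc7a10 was not tested.

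The next protein-coding gene on 1 side of Slc7a10 is Cebpa, which encodes the transcription factor C/EBP-alpha of myeloid cells and fat. It was singled out after its values were seen. It had 118, 71.5, 148 and 124 normalised reads in controls and 0, 0.917, 4.62 and 0 with IL-2 (log2 difference -4.25 ± 0.38 SE, limma adjusted p = 1.38e-05). The groups did not overlap, and this gene too entered the fit through the controls alone. Of the 10 nearest protein-coding genes, 5 on each side, 9 were in the table and 5 had enough reads for the fit, of which Cebpa was the only one that passed. Cebpg, in the same stretch, had 259.7 ± 76.7 reads with IL-2 and 280.3 ± 85.0 in controls.

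Slc7a7, a light chain that exports arginine and lysine in exchange for neutral amino acids and is known from kidney, gut and macrophages, went the other way. It had 22.7, 25.6, 62.9 and 29.6 normalised reads in IL-2 libraries 41 to 44 and 4.67, 0, 0 and 6.87 in control libraries 45 to 48. Each IL-2 value exceeded each control value, as for 13.0% of the genes tested, and library 43 was the highest. The mean was 35.2 ± 18.7 against 2.89 ± 3.45, 12.2-fold higher (log2 difference 2.36 ± 0.47 SE, limma adjusted p = 0.00386), resting on 11.3 unscaled reads in the control group. It entered the fit through its IL-2 libraries alone. The summed myeloid markers were lower with IL-2 and single ones differed in direction, as given above, and the part of such cells in the rise of Slc7a7 was not tested. The gene Oxa1l overlaps its end by 232 bases on the opposite strand and had 273 and 239.8 reads. No source used here states the strand setting of the counting, and the part of reads from the shared stretch was not tested.

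The other light chains and the heavy chains did not pass. Slc7a5 encodes LAT1, the leucine and tryptophan exchanger of activated T cells. It had 192, 176, 211 and 186 reads with IL-2 and 157, 154, 177 and 143 in controls, so that the lowest IL-2 library lay just under the highest control. Its log2 difference on reads was 0.27 ± 0.15 (SE, 95% interval -0.06 to 0.61, limma adjusted p = 0.249). Its spread between libraries (7.58% and 8.93% of the mean) was close to the counting error alone (7.26% and 7.92%). Its partner Slc3a2, the CD98 heavy chain, had 504, 530.5, 546 and 447 reads with IL-2 and 397, 392, 570.2 and 509 in controls. Those groups overlapped widely (log2 difference on the deposited scale 0.06, 95% interval -0.08 to 0.20, adjusted p = 0.527). On reads its 95% interval was -0.17 to 0.43.

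Slc7a6, which like Slc7a7 exchanges cationic for neutral amino acids, varied most among the better-read light chains. It had 79.8, 77.2, 225 and 146 reads with IL-2 and 189, 122, 134 and 146 in controls (log2 difference -0.27, 95% interval -0.96 to 0.41, adjusted p = 0.601). The IL-2 libraries spread by 52.8% of their mean, where counting alone gives 8.90%. Slc3a1, the heavy chain of kidney and gut, stood at 24.8 ± 4.50 and 39.0 ± 15.8 (adjusted p = 0.331), while its usual partner Slc7a9 had 0.909 reads in 1 control library and 0 elsewhere. The gene Prepl overlaps Slc3a1 by 767 bases on the opposite strand and had 109 reads with IL-2 and 91.5 in controls. The part of Slc3a1 reads from that stretch was not tested. Slc7a8, a light chain for neutral amino acids, had 10.4, 1.84, 3.48 and 2.04 reads with IL-2 and 2.72, 0, 0 and 0 in controls, too few for the fit.

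Slc1a5, which encodes the glutamine carrier ASCT2, was the member with many reads that rose most. It had 529, 731, 457 and 443 normalised reads in IL-2 libraries 41 to 44 and 339, 403, 318 and 264 in control libraries 45 to 48. Each IL-2 value exceeded each control value, and library 42 was the highest. The mean of 540.2 ± 133 was 1.63-fold that of controls, 331 ± 57.6 (log2 difference on the deposited scale 0.31 ± 0.08 SE, adjusted p = 0.0111, and on reads 0.68 ± 0.17, adjusted p = 0.0150, both limma). On reads the call was lost without the trend (adjusted p = 0.0507). The proliferation markers were higher in the same group, as given above. Their part in the rise was not tested.

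Of the Slc38 family, Slc38a9 fell and Slc38a10 rose on the deposited scale. Slc38a9, the lysosomal carrier through which arginine signals to mTORC1, had 199, 138, 194 and 185 reads with IL-2 and 237, 273, 336 and 252 in controls. Every IL-2 library lay below every control, as for 14.7% of all genes tested on the deposited scale, and the mean was 1.53-fold lower (log2 difference on that scale -0.21 ± 0.06 SE, limma adjusted p = 0.0203). The call was lost without IL-2 library 42 (adjusted p = 0.0575) or control library 47 (adjusted p = 0.0651), and on reads without library 42, 46 or 47 (adjusted p = 0.0633, 0.0565 and 0.0819). Slc38a10, whose product is less well described, had 619, 663, 561 and 652 reads with IL-2 and 393, 460.2, 465 and 606 in controls. Control library 48 lay within the IL-2 range, and the difference of 0.19 ± 0.06 (SE) passed on the deposited scale (adjusted p = 0.0404) but not on reads (adjusted p = 0.0573), nor without any 1 of libraries 41, 42, 44, 45, 46 or 47 (adjusted p = 0.0719 to 0.112).

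The main glutamine importers of the family did not pass. Slc38a1 (SNAT1) had 973, 1017, 1003 and 1048 reads with IL-2 and 1169.7, 1079, 1161 and 1083 in controls. All IL-2 libraries lay below all controls, yet by 1.11-fold on average (log2 difference -0.10, 95% interval -0.20 to 0.01, limma adjusted p = 0.146). The IL-2 libraries spread by 3.07% of their mean and the controls by 4.35%, where counting alone gives 3.15% and 2.97%. Slc38a2 (SNAT2), which cells raise when starved of amino acids, had 626, 798, 669 and 680.0 reads with IL-2 and 634, 614, 631 and 556 in controls (0.10, 95% interval -0.02 to 0.22, adjusted p = 0.196). Slc38a6, the member with the most reads, had 2496, 2349, 2579.8 and 2642 with IL-2 and 3166, 2649, 2685 and 2657 in controls. Its groups also did not overlap, but the highest IL-2 library and the lowest control differed by a few reads (-0.11, 95% interval -0.25 to 0.02, adjusted p = 0.171). Slc38a7, a lysosomal glutamine exporter, stood at 62.6 ± 17.7 and 63.1 ± 26.7 (adjusted p = 0.960).

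The cationic carrier Slc7a1 (CAT1), the main arginine importer of T cells, had 678, 552, 599 and 418 reads with IL-2 and 363, 442, 506 and 332 in controls. Library 44 lay within the control range, and the difference of 0.21 ± 0.08 (SE, deposited scale) did not pass (limma adjusted p = 0.0598), but did without library 44 (adjusted p = 0.0126) or without control library 47 (adjusted p = 0.0353). Slc7a14, a lysosomal member of the subfamily, had 194, 241, 270.3 and 234 reads with IL-2 and 275, 259, 231 and 269 in controls (-0.05, 95% interval -0.17 to 0.07, adjusted p = 0.517). On reads its 95% interval was -0.46 to 0.17. The other 3 genes of the subfamily had a few reads: Slc7a3 had 0 to 5.60 with IL-2 and 2.16 to 9.66 in controls, Slc7a4 0 to 9.57 and 3.26 to 23.9, and Slc7a2 0 to 4.38 and 0 to 10.1.

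Slc6a6, the taurine carrier, had 983, 995, 827 and 822 reads with IL-2 and 736, 779, 719.8 and 824 in controls. The groups met at library 44 and control library 48, and the difference of 0.14 (95% interval before adjustment 0.02 to 0.26) did not pass (limma adjusted p = 0.0790). The GABA and taurine carrier gene Slc6a13 had 3.81, 0, 1.16 and 3.05 reads with IL-2 and 0 in all controls, too few for a comparison.

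Slc43a2 (LAT4), which carries branched-chain amino acids and phenylalanine without exchange, had 846, 1097, 807 and 850.0 reads with IL-2 and 668, 909.5, 935 and 897 in controls (0.05, 95% interval -0.12 to 0.21, limma adjusted p = 0.682). Library 42 was high and control library 45 low among otherwise similar values. Its relative Slc43a1 (LAT3) was lower in reads and uneven, with 5.65, 0.911, 17.7 and 0 against 20.8, 27.5, 11.6 and 7.72 (adjusted p = 0.173). Slc43a3, which carries purine bases rather than amino acids, stood at 86.8 ± 9.70 and 92.5 ± 24.9 (adjusted p = 0.917).

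The proton-coupled carriers of endosomes and lysosomes, Slc36a1 and Slc36a4, did not pass. Slc36a1 had 198, 160.2, 158 and 191 reads with IL-2 and 129.9, 281, 214 and 224 in controls (log2 difference on reads -0.21, 95% interval -0.69 to 0.26, limma adjusted p = 0.555). Slc36a4 had 157, 211, 289 and 311 against 204, 262, 202 and 250.2 (deposited scale 0.02, 95% interval -0.15 to 0.18, adjusted p = 0.883). On reads its 95% interval was -0.42 to 0.49. In both genes 1 group was contained in the range of the other. Slc7a6os, which is no transporter, stood at 169 ± 24.1 and 189.8 ± 34.3 (adjusted p = 0.605).

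**Figure D3:**
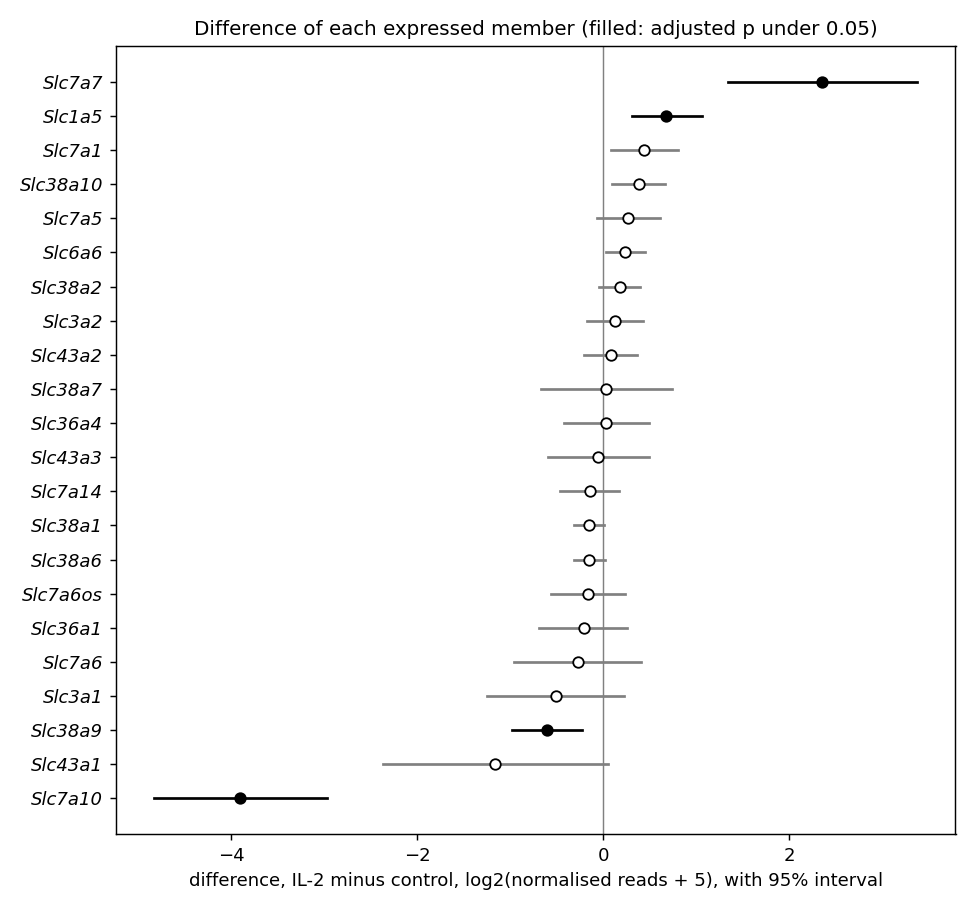
Difference IL-2 minus control on log2(normalised reads + 5) for the 22 expressed members (x axis), with unadjusted 95% intervals from limma; filled points passed an adjusted p of 0.05. The 4 filled points are Slc7a7 (2.36), Slc1a5 (0.68), Slc38a9 (-0.60) and Slc7a10 (-3.90), and 18 intervals belong to members that did not pass.

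Genes that sense or use amino acids were looked at through 8 lists. Across them 15 genes rose and 5 fell on the deposited scale, where 16.8% of all genes tested were called higher and 14.6% lower. Counts of 4 of 16 and 4 of 13 lie near the 31.4% called over the table. The Atf4 and Gcn2 list (6 of 12) and the tryptophan, serine and proline list (4 of 5) lie above it. On reads these had 8 of 20 and 6 of 13, where 19.9% of all genes were called, 10.9% higher and 9.07% lower. Amino acid sensing upstream of mTORC1 (3 of 35), branched-chain enzymes (1 of 21) and carriers of other families (2 of 17) lay below that share on reads. The glutamine, glutamate and aspartate (4 of 17), arginine and polyamine (3 of 15) and glutathione and cystine (2 of 12) lists lay near it. The lists are short, and no test over a list was run. Of 16 tested genes of amino acid sensing upstream of mTORC1, 1 rose and 3 fell (median -0.05), and on reads 1 and 2 of 35 (median 0.09). Among those that fell were Sesn3, a sestrin that restrains mTORC1 (1556 ± 205 against 2185 ± 198, limma adjusted p = 0.00273), and Bmt2, whose product SAMTOR senses the methionine derivative S-adenosylmethionine (341 ± 27.2 against 523 ± 30.7, adjusted p = 0.00118). Sec13 rose (adjusted p = 0.0402), but did not pass on reads (adjusted p = 0.0524).

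Of 12 tested genes of the Atf4 and Gcn2 response to amino acid shortage, 5 rose and 1 fell (median 0.17), and on reads 8 and 0 of 20 (median 0.33). Aldh18a1, for proline synthesis (573 ± 29.6 against 350.1 ± 40.9, limma adjusted p = 5.27e-04), Phgdh, the first enzyme of serine synthesis (374 ± 36.7 against 210.1 ± 31.3, adjusted p = 0.00120), and the initiation factor subunit Eif2s1 had the smallest p among those that rose. Eif2ak4, which encodes the sensor kinase Gcn2 itself, fell 1.61-fold on average (179.9 ± 63.0 against 289.6 ± 67.4, adjusted p = 0.0444). On reads its difference was -0.71 (95% interval -1.23 to -0.18) and missed the threshold (adjusted p = 0.0577). The transporters Slc38a2 and Slc7a5, which this response can raise, did not pass, as described above, and Slc7a11 had too few reads to be tested. The other members were not sorted by whether this response can raise them. Among these, Slc1a5 was called higher (limma adjusted p = 0.0111), and Slc7a1 (adjusted p = 0.0598) and Slc3a2 (adjusted p = 0.527) did not pass.

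Of 5 tested genes of tryptophan, serine and proline metabolism, 4 rose and 0 fell (median 0.32), Aldh18a1 and Phgdh again among them, and on reads 5 and 1 of 13 (median 0.55). The largest change was in Gldc, the glycine-cleaving subunit of the mitochondrial glycine cleavage system. It had 553, 746, 717 and 531 reads with IL-2 and 29.0, 0, 0 and 0 in controls. The groups did not overlap and the mean was 87.7-fold higher, 637 ± 110.5 against 7.26 ± 14.5 (deposited scale 1.59 ± 0.10 SE, limma adjusted p = 2.63e-07), although the gene entered the fit through its IL-2 libraries alone. Slc7a10, which can carry glycine, went the opposite way in the same libraries, and the glycine carriers of the Slc6 family stood at 0 (Slc6a9) or at 1.9 reads in 1 IL-2 library (Slc6a5). The other expressed members were not sorted by whether they carry glycine, and a link between Gldc and any carrier was not tested.

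Of 13 tested genes for glutamine, glutamate and aspartate, 3 rose and 1 fell (median 0.13), and on reads 3 and 1 of 17 (median 0.26). Glud1, which turns glutamate into a Krebs cycle intermediate, rose 1.63-fold, from 1347 ± 89.5 to 2199 ± 254 (limma adjusted p = 1.29e-04), as did Cad, of pyrimidine synthesis (538 ± 102 against 321 ± 45.6, adjusted p = 0.00443), and Mdh2 (1129 ± 174 against 811 ± 135, adjusted p = 0.0175, and 0.0530 without control library 46). Ctps2, a CTP synthase that uses glutamine, fell (599 ± 106 against 850.4 ± 60.2, adjusted p = 0.00745).

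Of 7 tested genes for arginine and polyamines, 2 rose and 0 fell (median 0.10), and on reads 2 and 1 of 15, where the median had the other sign (-0.10). The 2 on the deposited scale were Ass1, which makes the precursor from which arginine is rebuilt out of citrulline (2129, 2203, 1965 and 2330.3 against 908, 1165, 1345 and 1359.8, limma adjusted p = 1.31e-04), and Eif5a, the translation factor that carries a polyamine-derived residue (2467 ± 167 against 1459.5 ± 87.9, adjusted p = 1.73e-05). Of 5 genes for glutathione and cystine, 2 rose and 0 fell (on reads 2 and 0 of 12): Gclc, the rate-limiting enzyme of glutathione synthesis (495 ± 42.1 against 337 ± 25.2, adjusted p = 0.00300), and the peroxidase gene Gpx1 (655 ± 24.9 against 474 ± 16.3, adjusted p = 0.00210). Of 3 tested amino acid carriers of other families, Sfxn1, a mitochondrial serine carrier, rose (354 ± 40.2 against 246 ± 31.8, adjusted p = 0.0154), with 2 of 17 higher and 0 lower on reads. Of the rest, 0 of 4 branched-chain enzymes passed with limma, with 1 of 21 passing on reads.

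**Figure D4:**
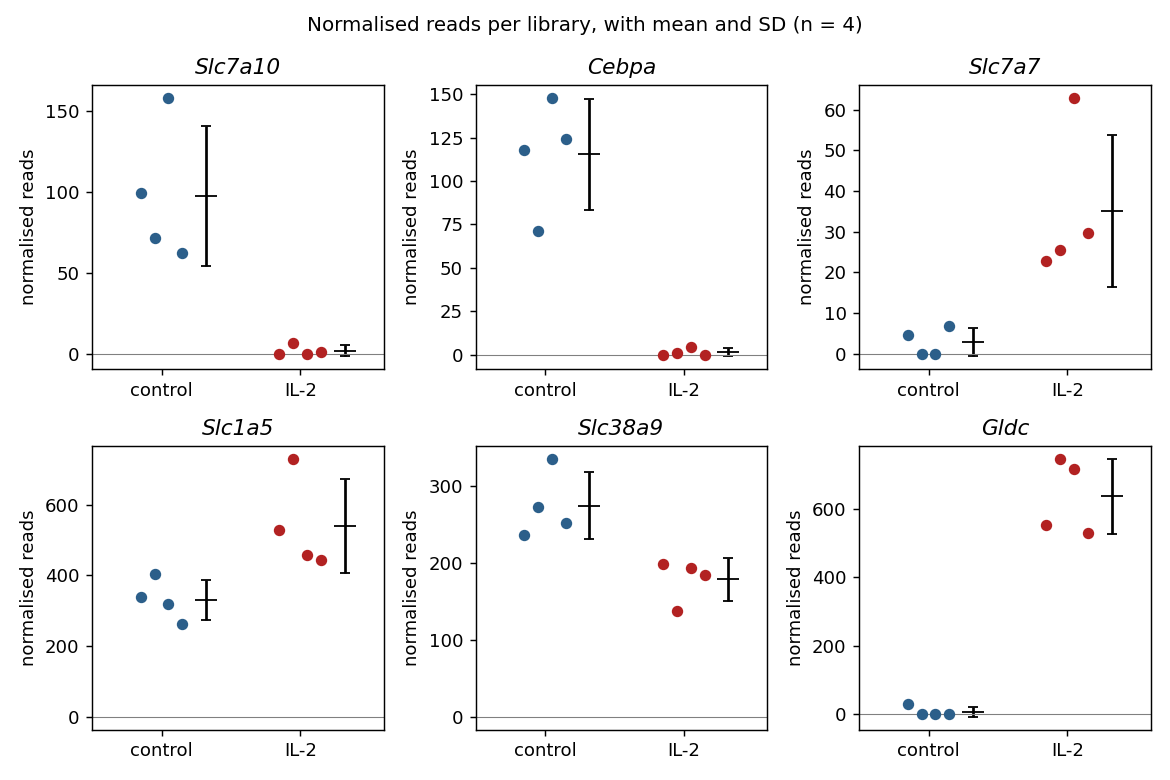
Normalised reads (y axis) of 4 transporters, of Cebpa and of Gldc in each library, with the mean and SD of 4 libraries beside the points. Slc7a10 and Cebpa lie at 0 to 6.87 in the IL-2 libraries, and Gldc at 0 in 3 of 4 control libraries.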

How the data were processed

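Total RNA of Tregs sorted from mouse spleen was turned into stranded libraries from low input, per the labels' protocols. The authors deposited 1 table of variance-stabilised log2 values for 21524 genes, and columns were matched to labels by library number. Per the submitters' processing notes, Salmon, DESeq2 and GRCm39 were used. No source used here gives their settings, the annotation or a filter.

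To get normalised reads, the parametric transformation was inverted, with 0 reads at the lowest value (8.69). Of the commonest values, 40 were checked and 40 were whole multiples of a read's worth (tolerance 0.001). Salmon's counts are estimates that need not be whole, and no count test was run. The deposited scale is compressed: 1 unit above the lowest value is 206 normalised reads. Salmon divides reads between similar transcripts by estimation, and 9 of the 22 expressed members overlap another annotated gene on the opposite strand. The longest such overlaps of gene spans were in Slc7a5 (26545 bases, Gm20388), Slc7a14 (24792 bases, Gm15496) and Slc38a9 (16558 bases, Gm47827). The deposited values hold none of these overlapping genes. Their part in the reads of Slc7a5, Slc7a14 and Slc38a9 was not tested.

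IL-2 and control were compared with limma (eBayes with trend, no covariates) on deposited values at least 1 above the lowest in at least 4 of 8 libraries (5261 genes), and, for the 10777 genes that reached 10 normalised reads in at least 4 libraries, on log2(normalised reads + 5), with p-values adjusted over all genes by the Benjamini-Hochberg method at 0.05. Members under the first filter are given from the second fit. Every member passing the first filter is named with its values. Of each list, up to 3 genes past the threshold with the smallest p in each direction are named, except 1 gene that is not reported here. Cebpa was named after its values were seen. The members and lists were chosen with earlier results of these data known. Both fits were tested on simulated data in which 200 of the 5261 or 10777 genes were changed. That is a smaller share than was called in the data, which makes the adjusted threshold stricter. The rates found there need not hold for this comparison. The fit on deposited values found 46.9% of differences of 0.25 and 97.5% of those of 0.5. The fit on reads found 16.9% of differences of 0.5, 51.9% of those of 1 and 87.2% of those of 2. A member that did not pass may still have changed by such amounts. Transcript lengths and overlaps came from GENCODE M21 (GRCm38), another build than the authors', and are used without coordinates. Alternatives were other filters, a pseudocount of 1, quantile normalization, median centring, limma without trend, robust or with array weights, the presence of Ddx3y as a covariate, and each library left out. Those run on the second fit (for Slc1a5 and Slc38a9 too), apart from the pseudocount, were added after seeing the data. limma 3.58.1 ran in R 4.3.3, and Python 3.11.15 was used with pandas 2.3.3, numpy 2.4.6 and, for plots, matplotlib 3.10.9.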

Additional observations from a re-analysis of the deposited data

Results flagged for a closer look

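In 4 of the 44 groups of 4 libraries looked at (22 expressed members in each group), 1 library lay far from the other 3. Chance flags about 1 in 20 such groups. Control library 45 held 3166 normalised reads of Slc38a6, above the others. For Slc43a2, IL-2 library 42 was high with 1097 and control library 45 low with 668. For Slc7a10, IL-2 library 42 held 6.87 reads where the other IL-2 libraries had at most 0.948.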

How the results depend on the processing

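Slc1a5 kept its direction and passed in all 17 alternatives to the fit on deposited values (limma adjusted p 0.00769 to 0.0367), but on reads in 14 of 15 (0.0121 to 0.0507). Slc7a10 (3.39e-05 to 5.98e-04) and Slc7a7 (0.00298 to 0.0162) passed in all 16 alternatives to the fit on reads. Of these, the 1 with no filter used the deposited values (log2 difference -0.62 for Slc7a10 and 0.33 for Slc7a7). Both genes had entered the fit on reads through 1 group alone, which favoured a difference, so these passes add no separate support. Slc38a9 passed in 15 of 17, on reads in 12 of 15 (0.0214 to 0.0819), and Slc38a10 in 6 of 17. Slc7a1, which did not pass, did so in 3 of 17. Of 24 such results on the 22 expressed members, 15 kept their direction and their side of the threshold throughout. Without 1 library in turn, the sign changed for Slc36a4 (-0.03 to 0.08), Slc43a2 (-0.02 to 0.08) and, on reads, Slc38a7 (-0.16 to 0.27) and Slc43a3 (-0.24 to 0.07), all of which did not pass in any setting.

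The stricter filter, which leaves fewer genes tested, gave 380 higher and 357 lower calls over the table, 0 and 0 among members and 4 and 1 among list genes. The only members it left were Slc38a1 and Slc38a6, which did not pass in the main fit either. Slc1a5, Slc38a9 and Slc38a10 were not tested under it, so it is no check on their calls. Members called higher numbered 1 with median centring, and on reads 1 without the trend. Members called lower numbered 2 with no filter, and 2 on reads with a pseudocount of 5 or of 1, where Slc7a10 is tested. Without 1 library in turn, the calls over the table ran from 757 to 828 higher and 621 to 707 lower, those of members from 1 to 2 and 0 to 1 (on reads 2 to 3 and 1 to 2), those of list genes from 13 to 16 and 3 to 5, and the expressed members from 20 to 21. For the other counts that moved, the cause was not tested. No paired analysis was possible because the groups share no replicate numbers. Depth limits what is said of the 42 members below 10 reads.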

Other observations

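Among the nearest protein-coding genes of the other members that passed, 5 on each side, those of Slc38a9 included 3 of 6 tested on reads that were lower with IL-2. Over all genes tested on reads, 19.9% were called, 10.9% higher and 9.07% lower. The 3 were Map3k1 (1907 ± 74.6 against 2571 ± 230.4 normalised reads, limma adjusted p = 0.00228), Ankrd55 (35.7 ± 14.3 against 83.7 ± 23.2, adjusted p = 0.0261) and Il6st, the shared signalling chain of the IL-6 receptor family (3394 ± 176 against 4203 ± 255, adjusted p = 0.00639). Near Slc7a7, 2 of 7 tested were higher, among them the adjacent Mrpl52, a mitochondrial ribosomal protein gene (463 ± 30.9 against 303 ± 32.5, adjusted p = 0.00363). Near Slc1a5, 0 of 5 passed with limma. These genes were picked by position after the members' values were seen.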
